A study of Mus musculus with 7 samples.

Results

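Transcripts of the DNA replication machinery were followed in tumour-infiltrating CD8 T cells from tumours with or without SMARTA cells, which are CD4 T cells of a single transgenic receptor. The 50 genes were chosen by name from the 53656 gene rows of the count tables, with earlier results of these data known. By role, 6 act in licensing, 16 in the helicase and the fork, 12 as polymerases or the single-strand binding protein RPA, 11 in the clamp, strand joining and chromatin assembly, and 5 in the supply of nucleotides and histone messages. All 50 were found and all 50 passed the filter on low counts. Cells replicate their genome in ordered steps. In G1 the origin recognition complex, Cdc6 and Cdt1 load the MCM helicase onto origins, which is called licensing. In S phase kinases recruit Cdc45 and the GINS complex, which turn the loaded ring into the active helicase. Polymerases and the sliding clamp then copy the strands, and ribonucleotide reductase supplies the deoxynucleotides. Resting T cells express little of this set, and activated, dividing T cells express much of it, in good part through E2F transcription factors.

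All libraries came from OT1 cells, CD8 T cells whose transgenic receptor sees a peptide of ovalbumin. They were sorted as CD8+ CD45.1+ cells out of B16-OVA-GP61 tumours, which grow from a mouse melanoma line carrying ovalbumin and the viral epitope GP61. SMARTA cells, CD4 T cells whose transgenic receptor sees GP61, were absent from the tumours of 4 libraries and present in those of 3. Other CD4 T cells in the tumours are not mentioned in the labels. Both groups share the OT1 receptor and the tumour line, so each result concerns CD8 T cells of 1 specificity in 1 tumour model. No strain, age or day is given in the labels, nor whether replicates are separate animals; the spread that p-values measure here may therefore be technical.

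Libraries held 38092722 to 49438357 counted read pairs. At these depths 3 counts correspond to 0.0607 to 0.0788 CPM (counts scaled to library size), a floor that covers counting error only, and every member lay above it in every library. Of the transcripts that define the sorted cells, Cd8a lay between 981 and 2030 CPM and Cd3e between 1143 and 1736 CPM, while Cd4 lay between 0.659 and 8.09 CPM. Replicate 1 with SMARTA stood apart by its erythroid transcripts, whose 7 measured markers summed to 4829 CPM against 9.72 to 223 CPM elsewhere. It also had the most counts, 49438357, but the fewest genes with a count, 19728 against 20048 to 22352 in the other libraries. Replicate 2 without SMARTA stood apart by pigment cell genes. Dct and Tyrp1 were at 15.9 and 28.5 CPM there and at most at 6.56 and 4.58 CPM in the other libraries, and Tyr and Sox10 were at or near 0 in those. The sum of all 8 melanoma markers did not set this library apart from those with SMARTA, at 123 CPM against 57.4, 125 and 91.2 CPM. Its most abundant member, Gpnmb, was at 54.3 CPM there and at 118 and 83.7 CPM in replicates 2 and 3 with SMARTA. Summed neutrophil markers were 53.4 and 26.1 CPM in replicates 1 and 2 without SMARTA and at most 2.91 CPM elsewhere. Summed stroma markers were at 88.8 to 125 CPM without and 143 to 191 CPM with SMARTA, and summed CD4 T cell markers at 39.7 to 96.2 and 120.5 to 140.3 CPM. Most of each sum came from 1 gene. Without Pecam1 the stroma sums were 0.106 to 10.99 and 4.86 to 19.1 CPM, and without Cd40lg the CD4 T cell sums were 13.5 to 40.4 and 27.0 to 51.4 CPM, so that the groups overlapped. The part of these transcripts in the results below was not tested. Each of 9 summed marker lists was compared by an exact permutation test (two-sided). The stroma and CD4 T cell lists gave the smallest p, 0.0571, or 0.257 after adjustment over the lists. Their full sums did not overlap between the groups, and 0.0571 is the smallest p this test can give with so few libraries. No list could therefore reach a p under 0.05, so the test cannot decide whether these sums differ.

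With SMARTA cells in the tumour the replication genes were lower nearly throughout. Of the 50 members 15 fell and none rose. Genes were called at a Benjamini-Hochberg adjusted p under 0.05 over the 15896 genes tested with edgeR's quasi-likelihood model. In 49 members the log2 fold change, which is always given as with minus without SMARTA and with its standard error, was negative. Over all genes tested 1.63% were called lower and 1.52% higher, against 30% and none of the members. The members were chosen with earlier results of these data known, so contrasts with all genes are a description and not a test. The median log2 fold change was −1.35 over the members and −0.0034 over all genes tested. Summed over the 50 genes the transcript was 7990.0 ± 1961 CPM without and 3576 ± 356 CPM with SMARTA (mean ± SD, n = 4 and 3, here and below). In 38 of the 50 members every library with SMARTA lay below every library without, which held for 10.5% of all genes tested, and in none did all lie above, against 8.73% of all genes. No member was called higher by DESeq2 or limma-voom either, and none had an unadjusted edgeR p under 0.05 in that direction. These are bulk samples, in which fewer replicating cells and less of these transcripts per cell cannot be told apart.

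**Figure D1:**
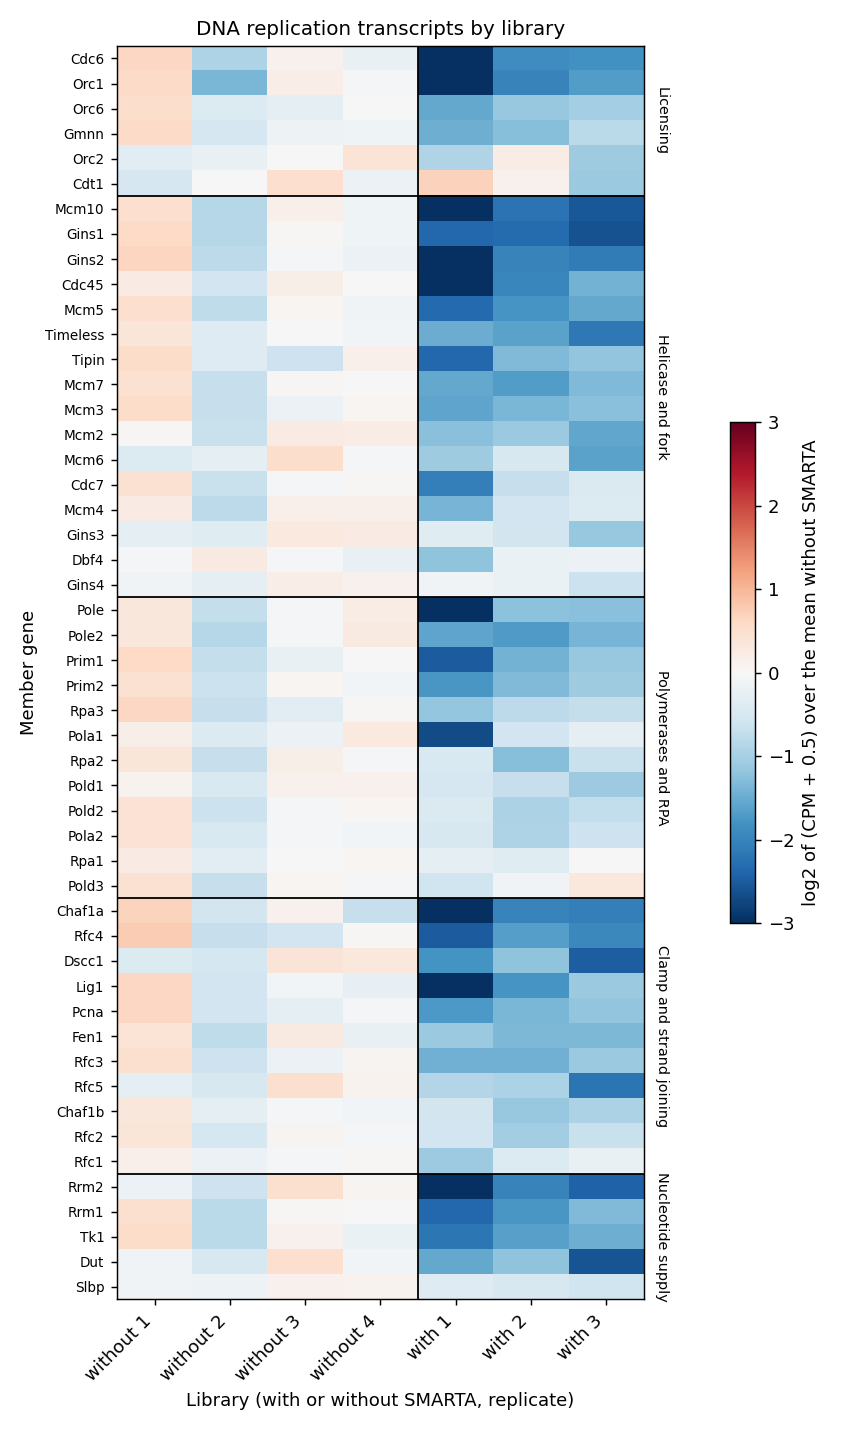
Each row is a member and each column a library; colour gives log2 of (CPM + 0.5) over the gene's mean without SMARTA, blue below and red above, with the scale ending at −3 and 3. The 3 columns with SMARTA are blue for nearly all of the 50 rows, while Cdt1, Orc2 and Pold3 have libraries on both sides in that group.

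The number of calls rested on which libraries entered the fit, whereas the direction was shared by all fits but for the genes named here. With 1 library left out at a time, 49 members had a negative log2 fold change in each of the 7 fits and the median over members stayed between −1.52 and −1.20. The member with a positive value was Cdt1 or Pold3. The count called lower was 16 without replicate 2 lacking SMARTA and 14 without replicate 1 with SMARTA, the libraries with the pigment cell and the erythroid transcripts. Over all genes 1.55% and 2.37% were called lower in these fits. The count of members was 0 without replicate 1, 3 or 4 lacking SMARTA and without replicate 2 or 3 with SMARTA. In these 5 fits 34 to 40 members still had an unadjusted edgeR p under 0.05 in the lower direction, and 0.0453% to 0.313% of all genes were called lower. Mcm2, Mcm5, Mcm7, Mcm10, Gins1, Gins2, Timeless, Rrm1, Rrm2 and Tk1 were called in both fits that called any member. With both of the libraries that stand apart in their markers left out together, a setting chosen after seeing the data, 31 members were called lower, among them all 15. Of all genes 3.95% were called lower there.

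**Figure D2:**
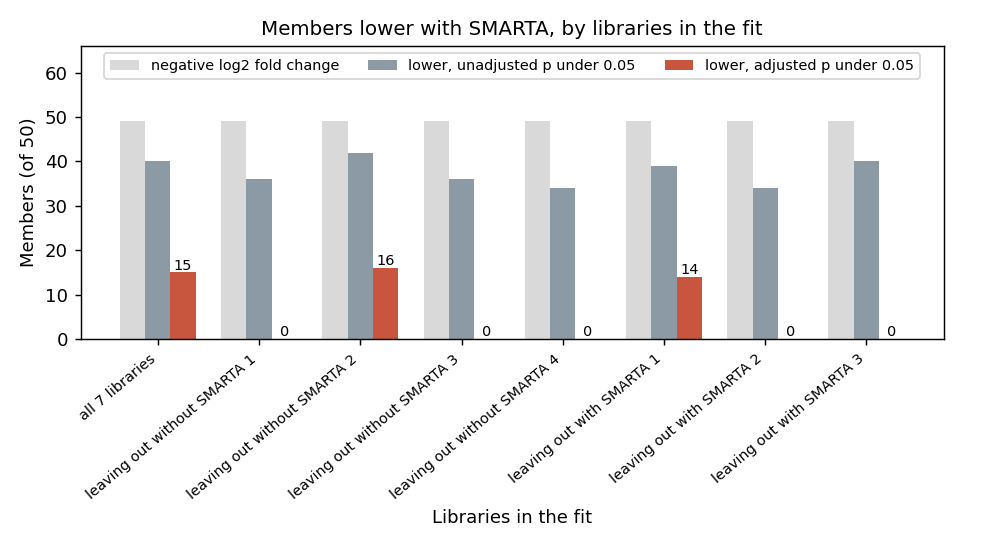
Bars count, of 50 members, those with a negative log2 fold change, those lower at an unadjusted edgeR p under 0.05 and those lower at an adjusted p under 0.05, for the fit of all 7 libraries and for each fit that leaves out 1. The first 2 kinds of bar change little, and the last is 15 with all libraries, 16 and 14 in 2 of the other fits and 0 in 5.

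Among the licensing genes none of 6 passed the threshold with edgeR at the settings used throughout or with limma-voom, although 4 had an unadjusted edgeR p under 0.05. DESeq2 called 4, and edgeR called 4 where genes needed 5 CPM in 3 libraries, 2 with library totals, 1 with no filter and 1, Cdc6, without replicate 1 with SMARTA. Over all genes tested 5.78% were called lower by DESeq2 and 5.23% with that CPM filter. The shares were 2.5% with library totals, 1.06% with no filter and 2.37% without replicate 1 with SMARTA. Orc1, the largest subunit of the origin recognition complex, was at 46.4, 11.7, 35.6 and 30.4 CPM in replicates 1 to 4 without SMARTA and 2.1, 7.33 and 9.29 CPM in replicates 1 to 3 with SMARTA (log2 −2.31 ± 0.61, edgeR adjusted p = 0.0794). Cdc6, the ATPase that loads the MCM ring with Cdt1, was at 168, 57.1, 119.6 and 93.6 CPM without and 3.27, 29.7 and 30.6 CPM with SMARTA (log2 −2.37 ± 0.71, edgeR adjusted p = 0.116). In both genes every library with SMARTA lay below every library without, and replicate 1 with SMARTA was lowest by a wide margin. The smaller subunit Orc6 (76.9 ± 23.8 against 32.8 ± 5.81 CPM; log2 −1.23 ± 0.28, edgeR adjusted p = 0.0549) also had no overlap between the groups. Orc2, of the same complex, did overlap, with 25.1, 27.0, 31.2 and 41.9 CPM without and 16.6, 36.8 and 14.8 CPM with SMARTA and a log2 fold change of −0.46 ± 0.37.

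Cdt1 and geminin act against each other: Cdt1 loads the MCM ring, and geminin, Gmnn, binds Cdt1 to stop a second loading within the same S phase. Cdt1 was the only member whose log2 fold change was positive, and only slightly (log2 0.09 ± 0.43, edgeR adjusted p = 0.943), and its sign turned negative under library totals (−0.046), limma-voom (−0.012), without replicate 1 lacking SMARTA (−0.084) and without replicate 1 with SMARTA (−0.36). It stood at 17.1, 24.8, 34.9 and 21.6 CPM without and 40.3, 27.1 and 11.1 CPM with SMARTA, with replicate 1 with SMARTA highest of all 7 libraries and replicate 3 with SMARTA lowest. Gmnn was at 139, 66.4, 85.1 and 85.3 CPM without and 33.6, 38.5 and 53.3 CPM with SMARTA (log2 −1.17 ± 0.30, edgeR adjusted p = 0.0746), with no overlap between the groups.

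Helicase and fork genes gave 8 of the 15 calls, 8 of 16 with none higher, against 1.63% lower and 1.52% higher over all genes. All 16 had a negative log2 fold change. Of the 6 subunits of the MCM2-7 ring, Mcm2, Mcm3, Mcm5 and Mcm7 fell, while Mcm4 and Mcm6 did not pass. Mcm5, at chr8:75109569-75128439 (GRCm38, plus strand), was at 769, 320.2, 566 and 502 CPM in replicates 1 to 4 without SMARTA and 107, 159 and 187 CPM in replicates 1 to 3 with SMARTA, a 3.57-fold lower mean (log2 −1.84 ± 0.33, edgeR adjusted p = 0.0294). Mcm7, at chr5:138164583-138172422 (minus strand), was at 558, 254, 419.8 and 407 CPM without and 140.5, 128 and 164 CPM with SMARTA (log2 −1.51 ± 0.27, edgeR adjusted p = 0.0303). The groups did not overlap in either gene, with replicate 2 the lowest of the libraries without SMARTA. Mcm3 was at 807, 340.1, 488 and 579 CPM without and 183, 212 and 233 CPM with SMARTA (log2 −1.40 ± 0.29, edgeR adjusted p = 0.0424). Mcm2, whose product carries a histone-binding tail, was at 497, 304, 576 and 568 CPM without and 203, 223 and 165 CPM with SMARTA (log2 −1.30 ± 0.26, edgeR adjusted p = 0.0402). These also lay apart, without overlap. Mcm4 was at 500.5, 245, 466 and 467 CPM without and 159, 282 and 316 CPM with SMARTA, so that replicates 2 and 3 with SMARTA lay above replicate 2 without (log2 −0.73 ± 0.32, edgeR adjusted p = 0.262). Mcm6 was at 215, 233, 414 and 279.6 CPM without and 135, 205 and 93.4 CPM with SMARTA, with no overlap but a wide spread with SMARTA (log2 −0.98 ± 0.33, edgeR adjusted p = 0.153).

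Among the factors that turn the loaded ring into a working helicase, Mcm10, Gins1 and Gins2 fell. Mcm10, needed for the activation of the helicase, was at 97.7, 37.6, 76.1 and 62.9 CPM without and 2.78, 14.4 and 11.4 CPM with SMARTA. Its mean was 7.21-fold lower with SMARTA, with replicate 1 lowest (log2 −2.85 ± 0.58, edgeR adjusted p = 0.0424). Cdc45, which joins the ring, was at 98.4, 55.8, 94.2 and 83.6 CPM without and 6.23, 21.0 and 30.5 CPM with SMARTA and missed the threshold (log2 −2.11 ± 0.50, edgeR adjusted p = 0.0597). The 4 GINS proteins form a single tetramer, but their transcripts did not show equal fold changes. Gins1 was at 31.6, 11.2, 21.3 and 19.1 CPM without and 3.65, 3.81 and 3.0 CPM with SMARTA. Its mean was 5.98-fold lower, and the libraries with SMARTA lay close together (log2 −2.58 ± 0.39, edgeR adjusted p = 0.0188). Gins2 was at 82.1, 30.4, 50.7 and 46.7 CPM without and 3.56, 12.7 and 11.9 CPM with SMARTA (log2 −2.48 ± 0.52, edgeR adjusted p = 0.0429), also without overlap. Of its exon bases 67.3% are shared with Gse1 on the other strand, where the unstranded counting gives read pairs to neither gene. Gins3 was at 34.1 ± 8.22 against 21.6 ± 5.69 CPM (log2 −0.66 ± 0.29, edgeR adjusted p = 0.277) and Gins4 at 67.0 ± 10.0 against 54.4 ± 10.5 CPM (log2 −0.30 ± 0.22, edgeR adjusted p = 0.536), and the groups overlapped in both.

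Of the kinase and fork genes, Timeless, which with Tipin keeps the fork stable and coupled to its polymerases, was at 107, 63.8, 83.8 and 77.9 CPM without and 29.2, 26.9 and 18.4 CPM with SMARTA. The groups lay far apart, and its adjusted p was the smallest of all 50 members (log2 −1.74 ± 0.27, edgeR adjusted p = 0.0185). Tipin was at 241, 124, 106 and 182 CPM without and 31.4, 64.4 and 71.7 CPM with SMARTA with no overlap between the groups (log2 −1.55 ± 0.38, edgeR adjusted p = 0.066). Cdc7, the kinase that fires licensed origins, was at 70.9 ± 21.6 against 37.5 ± 18.5 CPM (log2 −0.92 ± 0.41, edgeR adjusted p = 0.279). Its activator Dbf4 was at 18.9 ± 2.76 against 13.6 ± 4.92 CPM (log2 −0.47 ± 0.32, edgeR adjusted p = 0.491). The groups overlapped in both.

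**Figure D3:**
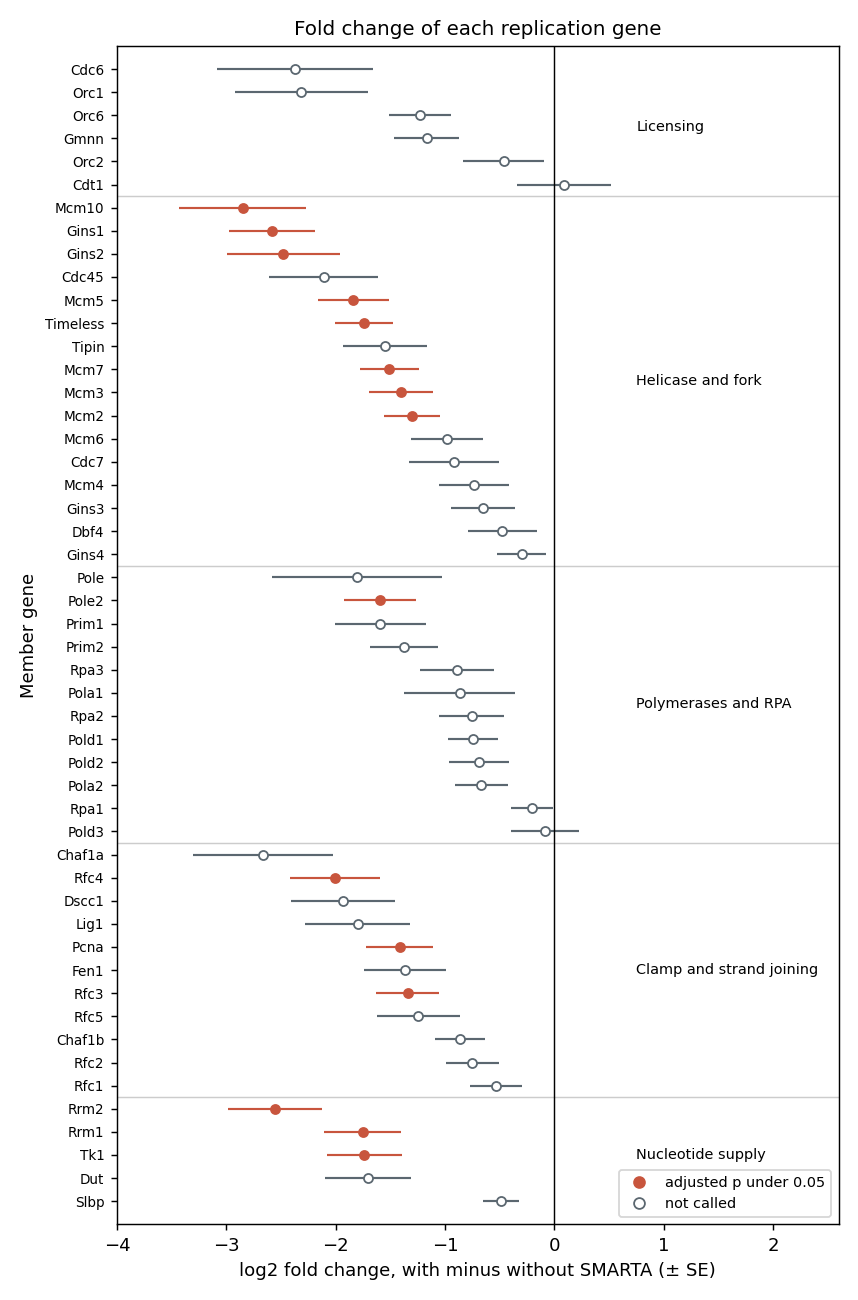
Points give the log2 fold change of each of the 50 members, with minus without SMARTA, and bars its standard error; filled points passed an adjusted p under 0.05. All points but that of Cdt1 lie left of 0, and within the helicase and fork genes they range from −2.85 for Mcm10 to −0.30 for Gins4.

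Levels were compared between genes as CPM per kilobase of exon not shared with another gene. The length is that of all annotated exons of a gene together, not of 1 transcript. Differences and ranks between genes therefore also depend on the annotation. On this scale the ring subunits Mcm3, Mcm5 and Mcm4 held the ranks 1, 3 and 4 of the 50 members without SMARTA. Mcm3 was at 148 ± 52.1 without and 55.9 ± 6.74 with SMARTA, in CPM per kilobase. On the same scale Mcm5 was at 135 ± 46.4 without and 37.8 ± 10.1 with SMARTA, and Mcm4 at 117 ± 32.7 without and 70.3 ± 23 with SMARTA. Mcm7 was at 106 ± 32.1 without and 37.2 ± 4.74 with SMARTA, and these 4 overlapped each other without SMARTA. Mcm2 was at 69.8 ± 18.2 without and 28.3 ± 4.25 with SMARTA and Mcm6 at 61.2 ± 19.3 without and 31 ± 12.1 with SMARTA; without SMARTA every library of both lay below every library of Mcm3. The length used was 6956 bases for Mcm2 and 3752 for Mcm3, whose mean CPM without SMARTA were 486 and 553. The ring itself holds its subunits in equal number, but levels per transcript were not measured here. With SMARTA Mcm4 stood first of all 50 members and Mcm5 at rank 9. Of the activation factors, Mcm10 was at 8.91 ± 3.27 without and 1.24 ± 0.782 with SMARTA, Cdc45 at 40.6 ± 9.38 without and 9.42 ± 5.99 with SMARTA and Gins2 at 39.2 ± 16.2 without and 7.03 ± 3.79 with SMARTA. Gins1 was at 13.7 ± 5.55 without and 2.3 ± 0.282 with SMARTA. Gins3 was at 12.6 ± 3.04 without and 7.99 ± 2.1 with SMARTA, and Gins4 at 49.6 ± 7.43 without and 40.3 ± 7.77 with SMARTA, which placed Gins4 above Mcm5, Mcm7, Mcm6 and Mcm2 in the means with SMARTA. Of the 4 GINS transcripts the ones that fell, Gins1 and Gins2, held the ranks 37 and 23 without SMARTA, and Gins3 and Gins4, which were not called, the ranks 40 and 19.

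**Figure D4:**
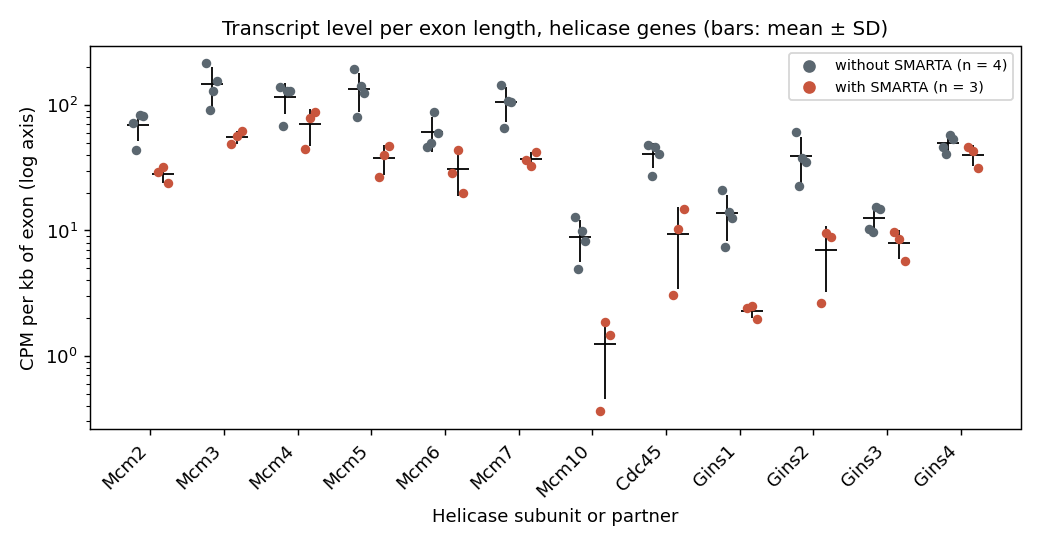
The log axis gives CPM per kilobase of unshared exon for the ring subunits and their activation factors, with a point for each library and bars for the mean ± SD of 4 libraries without and 3 with SMARTA. The groups overlap for Gins4 (means 49.6 and 40.3) and not for Gins1 (13.7 and 2.30) or Mcm10 (8.91 and 1.24).

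Promoter sequences are shown for 4 called members with matches to the E2F site, for Cdt1, which has a match but was not lower, and for Rrm2, which fell and has none. They run from 250 bases before to 50 after the start site that RefSeq gives on GRCm38.p6, 5′ to 3′ on the gene's strand, with the matches in capitals. The last 25 bases were found in a GENCODE transcript of the gene for 34 of 40 promoters, but not for Mcm5. The Mcm5 window ends at 75109558, before the start of the counted gene at 75109569.
Mcm5 promoter, chr8:75109259-75109558, strand plus: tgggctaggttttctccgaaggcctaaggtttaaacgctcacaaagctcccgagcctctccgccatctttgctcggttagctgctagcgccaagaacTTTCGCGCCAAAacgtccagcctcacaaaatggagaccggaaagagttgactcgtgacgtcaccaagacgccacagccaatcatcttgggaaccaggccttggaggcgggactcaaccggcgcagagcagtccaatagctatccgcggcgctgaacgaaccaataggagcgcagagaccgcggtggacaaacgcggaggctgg
Mcm7 promoter, chr5:138171834-138172133, strand minus: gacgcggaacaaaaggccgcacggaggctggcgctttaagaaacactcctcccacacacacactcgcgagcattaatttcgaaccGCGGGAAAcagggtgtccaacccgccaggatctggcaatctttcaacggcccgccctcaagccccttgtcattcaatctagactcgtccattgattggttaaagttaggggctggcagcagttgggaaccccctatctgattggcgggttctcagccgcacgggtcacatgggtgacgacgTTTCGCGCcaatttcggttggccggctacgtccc
Mcm3 promoter, chr1:20820263-20820562, strand minus: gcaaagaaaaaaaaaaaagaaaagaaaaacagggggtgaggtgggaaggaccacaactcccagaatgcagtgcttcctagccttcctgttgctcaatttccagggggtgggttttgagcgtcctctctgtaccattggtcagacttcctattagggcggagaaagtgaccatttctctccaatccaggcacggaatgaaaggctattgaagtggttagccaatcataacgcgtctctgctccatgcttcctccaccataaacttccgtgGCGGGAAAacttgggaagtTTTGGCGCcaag
Rfc3 promoter, chr5:151651159-151651458, strand minus: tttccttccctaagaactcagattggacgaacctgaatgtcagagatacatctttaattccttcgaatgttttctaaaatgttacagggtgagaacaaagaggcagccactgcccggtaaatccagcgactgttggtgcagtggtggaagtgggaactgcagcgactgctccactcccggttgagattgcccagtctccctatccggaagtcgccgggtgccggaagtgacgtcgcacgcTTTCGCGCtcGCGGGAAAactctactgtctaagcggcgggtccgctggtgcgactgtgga
Cdt1 promoter, chr8:122567765-122568064, strand plus: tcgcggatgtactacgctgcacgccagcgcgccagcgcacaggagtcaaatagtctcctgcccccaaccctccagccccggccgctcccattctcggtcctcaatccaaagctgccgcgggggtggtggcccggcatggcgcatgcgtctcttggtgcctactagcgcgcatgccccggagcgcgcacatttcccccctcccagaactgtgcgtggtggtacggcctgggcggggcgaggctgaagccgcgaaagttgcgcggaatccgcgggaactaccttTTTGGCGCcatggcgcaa
Rrm2 promoter, chr12:24708004-24708303, strand plus: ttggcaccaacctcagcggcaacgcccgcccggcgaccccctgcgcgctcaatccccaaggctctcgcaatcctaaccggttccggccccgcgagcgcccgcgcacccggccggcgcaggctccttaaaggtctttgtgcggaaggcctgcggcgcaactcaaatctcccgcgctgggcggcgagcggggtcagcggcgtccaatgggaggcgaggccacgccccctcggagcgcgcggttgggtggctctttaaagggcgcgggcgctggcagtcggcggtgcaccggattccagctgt
The search used TTTCCCGC, TTTCGCGC, TTTGCCGC and TTTGGCGC on both strands, and matches may overlap each other: the capitals of Mcm5 are an overlapping pair. A match is a description and not a bound site.

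A promoter was found for 40 of the 50 members and for 9273 of the genes tested. E2F letters stood in 13 of the 40 (32.5%), against 4.14% of the 9273. They stood in 5 of the 13 called members with a promoter (38.5%) and in 8 of the 27 others (29.6%). The median log2 fold change was −1.34 over the members with the letters and −1.30 over those without. The CCAAT box, searched as CCAAT on both strands, stood in 60% of the members' promoters and in 39% of all, and the cell cycle element TTTGAA in 15% and 11.9%.

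Of the polymerase and RPA genes 1 of 12 was called lower, against 1.63% of all genes (by limma-voom 0, against 1.7%, and by DESeq2 4, against 5.78%). Their median log2 fold change, −0.81, was the nearest to 0 of the 5 roles. Pole2, a subunit of the leading-strand polymerase epsilon, was at 45.3, 19.2, 34.4 and 42.8 CPM without and 11.6, 10.5 and 13.1 CPM with SMARTA (log2 −1.60 ± 0.33, edgeR adjusted p = 0.0429). Its catalytic partner Pole was at 109.5, 52.2, 82.5 and 101 CPM without and 2.1, 36.3 and 35.8 CPM with SMARTA, where replicate 1 with SMARTA was far below the rest (log2 −1.80 ± 0.78, edgeR adjusted p = 0.261). The groups did not overlap in either gene. Both primase subunits, which lay down the RNA primer, had no overlap: Prim1 was at 96.7 ± 37.4 against 32.1 ± 14.0 CPM (log2 −1.59 ± 0.41, edgeR adjusted p = 0.0767) and Prim2 at 53.0 ± 16.2 against 20.4 ± 4.93 CPM (log2 −1.38 ± 0.31, edgeR adjusted p = 0.0544).

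Pola1, the catalytic subunit of the polymerase bound to primase, was at 58.2, 38.5, 45.4 and 63.6 CPM without and 7.63, 34.2 and 42.8 CPM with SMARTA (log2 −0.87 ± 0.51, edgeR adjusted p = 0.424), and only replicate 1 with SMARTA was far from the others. Its partner Pola2 was at 161 ± 41.1 against 102 ± 15.8 CPM (log2 fold change −0.67 ± 0.24). Of the lagging-strand polymerase delta, the catalytic Pold1 and the accessory Pold2 had log2 fold changes of −0.74 ± 0.23 and −0.69 ± 0.27. The accessory Pold3 was at 158, 70.4, 119.6 and 112 CPM without and 75.6, 107 and 142 CPM with SMARTA, with overlap (log2 −0.08 ± 0.31, edgeR adjusted p = 0.924). Its sign turned positive without replicate 1 lacking SMARTA (0.08) and without replicate 1 with SMARTA (0.10). RPA coats single-stranded DNA also during repair. Its large subunit Rpa1 was at 387, 256, 319.8 and 336 CPM without and 269.8, 252 and 324 CPM with SMARTA (log2 −0.21 ± 0.19, edgeR adjusted p = 0.643). The smaller subunits Rpa2 and Rpa3 had log2 fold changes of −0.76 ± 0.30 and −0.89 ± 0.34, neither called.

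In the clamp group 3 of 11 fell, against 1.63% of all genes tested. All 11 had every library with SMARTA below every library without, against 10.5% of all genes. DESeq2 called 9 of the 11 lower and edgeR with the CPM filter also 9, where 5.78% and 5.23% of all genes were called lower. Pcna, the sliding clamp that holds polymerases on DNA, at chr2:132249162-132253314 (minus strand), was at 406, 176, 216 and 257 CPM in replicates 1 to 4 without SMARTA and 79.7, 102 and 115 CPM in replicates 1 to 3 with SMARTA, a 2.67-fold lower mean (log2 −1.41 ± 0.31, edgeR adjusted p = 0.0475). The pseudogene Pcna-ps2 took 49 to 323 counts a library. Read pairs matching both places were left out and their number is not known, so the level of Pcna is uncertain by an unknown amount. The clamp is opened and loaded by the RFC complex, of which Rfc3 and Rfc4 fell. Rfc4 was at 159, 58.4, 62.7 and 95.7 CPM without and 16.2, 29.6 and 24.4 CPM with SMARTA (log2 −2.01 ± 0.41, edgeR adjusted p = 0.0424). Rfc3 was at 108, 50.2, 68.5 and 81.6 CPM without and 27.9, 28.1 and 35.5 CPM with SMARTA (log2 −1.34 ± 0.29, edgeR adjusted p = 0.0466). In both, replicate 1 was the highest library without SMARTA and replicate 1 the lowest with SMARTA. The other loader subunits were not called: Rfc1, the large subunit, had a log2 fold change of −0.53 ± 0.24, Rfc2 of −0.75 ± 0.24 and Rfc5 of −1.24 ± 0.38.

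Genes that finish the lagging strand and repack it were lower in each library with SMARTA, without passing. The ligase Lig1 was at 251, 108, 153 and 138 CPM without and 18.2, 47.3 and 74.7 CPM with SMARTA (log2 −1.80 ± 0.48, edgeR adjusted p = 0.0833), with replicate 1 with SMARTA lowest. The flap endonuclease Fen1 was at 10.0 ± 3.59 against 3.87 ± 0.427 CPM (log2 −1.37 ± 0.38, edgeR adjusted p = 0.0879). Of its exon bases 84.2% are shared with other genes, so this level was counted over few bases. Chaf1a, a subunit of the chromatin assembly factor that binds the clamp, was at 20.6, 8.57, 14.1 and 7.7 CPM without and 0.53, 2.79 and 2.71 CPM with SMARTA. Its fold change was the greatest among members that were not called (log2 −2.67 ± 0.64, edgeR adjusted p = 0.0628). The smaller subunit Chaf1b had a log2 fold change of −0.86 ± 0.23. Dscc1, of an alternative clamp loader used in sister chromatid cohesion, was the scarcest member per kilobase in both groups, at 8.85 ± 3.01 against 2.32 ± 1.2 CPM (log2 −1.93 ± 0.48, edgeR adjusted p = 0.0667).

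**Figure D5:**
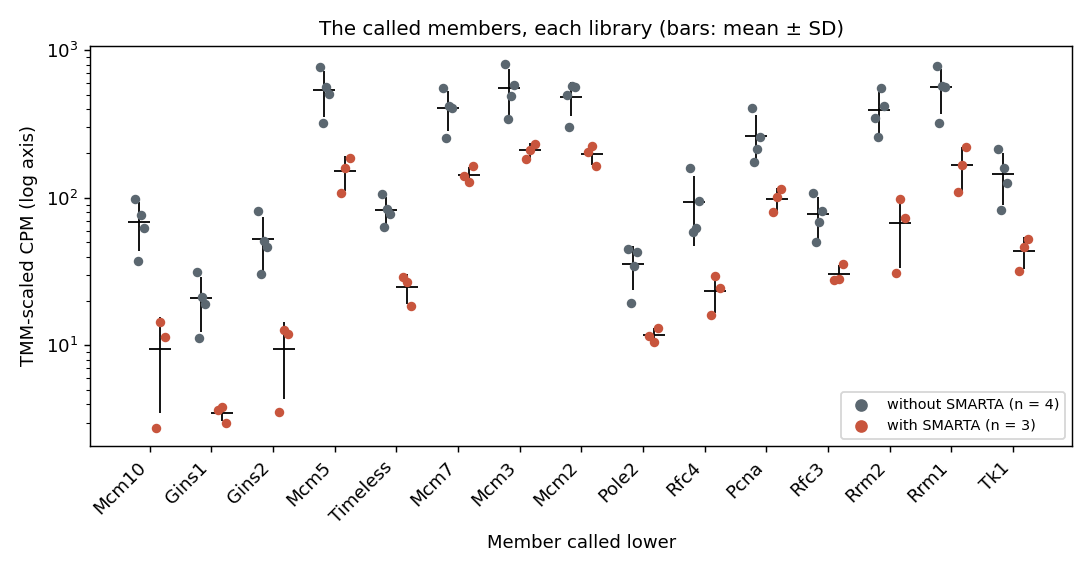
The log axis gives TMM-scaled CPM of the 15 members called lower, with a point for each library and bars for the mean ± SD of 4 libraries without and 3 with SMARTA. The groups do not overlap in any of the 15, and replicate 1 with SMARTA is the lowest library in 10 of them.

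Nucleotide supply genes fell in 3 of 5, against 1.63% of all genes tested. In all 5 every library with SMARTA lay below every library without, against 10.5% of all genes. DESeq2 called 5 of the 5 lower and limma-voom 4, where 5.78% and 1.7% of all genes were called lower. Ribonucleotide reductase makes deoxynucleotides from a large subunit, Rrm1, and an S-phase small subunit, Rrm2. Rrm2, at chr12:24708241-24714146 (plus strand), was at 349, 258, 553 and 419 CPM in replicates 1 to 4 without SMARTA and 31.0, 98.2 and 72.7 CPM in replicates 1 to 3 with SMARTA, a 5.87-fold lower mean (log2 −2.55 ± 0.43, edgeR adjusted p = 0.0256). Per kilobase Rrm2 ranked 2 of 50 without and 17 of 50 with SMARTA. Replicate 1 with SMARTA was lowest for Rrm2 and for Rrm1, which was at 784, 319.6, 571 and 566 CPM without and 109.8, 167 and 222 CPM with SMARTA (log2 −1.75 ± 0.35, edgeR adjusted p = 0.0409). Tk1, the S-phase thymidine kinase of the salvage route, was at 214, 82.5, 158 and 126 CPM without and 32.0, 46.3 and 52.3 CPM with SMARTA (log2 −1.74 ± 0.34, edgeR adjusted p = 0.0409). Dut, which removes dUTP, was at 43.8, 33.6, 66.6 and 44.6 CPM without and 15.9, 20.1 and 7.38 CPM with SMARTA and narrowly missed the threshold (log2 −1.70 ± 0.39, edgeR adjusted p = 0.0553). Slbp, which binds the stem-loop of histone messages, was at 392 ± 37.5 against 279.9 ± 21.1 CPM (log2 −0.49 ± 0.16, edgeR adjusted p = 0.15), a small difference with little spread in either group.

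Other genes of the replication pathway, a list of 43 that are not among the 50, changed less uniformly. Of the 43, all tested, 4 fell and 1 rose, where 1.63% of all genes were called lower and 1.52% higher. A single higher call among 43 genes is near that share. In 35 the log2 fold change was negative, and the median over the 43 was −0.68. Over all genes tested 50.2% were negative. Those that fell were thymidylate synthase, Tyms (154 ± 55.4 against 38.5 ± 16.5 CPM; edgeR adjusted p = 0.0417), the histone chaperone Asf1b (log2 fold change −1.93 ± 0.40), the initiation helicase Recql4 (−1.85 ± 0.41) and Chtf18 (−1.52 ± 0.33), the partner of Dscc1 in the alternative clamp loader. The gene that rose was Samhd1, an interferon-inducible enzyme that degrades deoxynucleotides, at 309, 404, 538 and 374 CPM without and 737, 1168 and 1656 CPM with SMARTA. Each library with SMARTA lay above each without (log2 1.55 ± 0.29, edgeR adjusted p = 0.0367). The stress-inducible small reductase subunit Rrm2b, named after its values were seen, was at 19.8, 22.8, 19.6 and 25.6 CPM without and 23.7, 42.1 and 42.5 CPM with SMARTA with overlapping groups (log2 0.72 ± 0.27, edgeR adjusted p = 0.197). In the fits that leave out 1 library 0 to 6 of the 43 were called lower, against 0.0453% to 2.37% of all genes. Among these fits Samhd1 was called only without replicate 1 with SMARTA.

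Mitosis genes, which act after replication, were set beside the members, as a list also chosen with earlier results of these data known. Of 20 such genes 8 fell and none rose, where 1.63% of all genes were called lower and 1.52% higher. The median log2 fold change was −2.45, against −1.35 over the 50 replication genes, and the difference between the lists was not tested. The count of mitosis genes called lower was 14 with limma-voom and 17 with DESeq2, where 1.7% and 5.78% of all genes were called lower. It was 3, 8, 3 and 0 with replicates 1 to 4 lacking SMARTA left out in turn. With replicates 1 to 3 with SMARTA left out it was 16, 0 and 2. Over all genes 0.0453% to 2.37% were called lower in these fits. The summed level of the mitosis genes was 1496 to 2843 CPM without SMARTA and 186, 493 and 723 CPM in replicates 1, 2 and 3 with SMARTA. The summed level of the 50 members in the same libraries was 5343 to 10070 CPM and 3179, 3684 and 3866 CPM. Within the groups, replicate 1 without SMARTA was the highest of its group in 36 of the 50 members and replicate 2 the lowest in 44. Replicate 1 with SMARTA was the lowest of its group in 28 of the 50, replicate 3 in 14 and replicate 2 in 8. The median log2 fold change of the members was −1.29 without replicate 1 with SMARTA, where 10 of the 15 calls remained among 14, and −1.20 without replicate 1 lacking SMARTA, which also held most of the neutrophil transcript.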

How the data were processed

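Messenger RNA was sequenced in 7 libraries. Per the labels' protocols, RNA of sorted cells was amplified over 12 cycles with SMART-seq V4, which does not mark strand, and read as 50 base pairs from both ends. Reads were aligned with STAR 2.6.0c to GRCm38.p6, per the submitters' processing notes. The deposited values are raw counts: per the file headers, featureCounts 1.6.2 assigned read pairs to gene names by GENCODE M17 exons, without strand. With its defaults, which the headers' command line keeps, reads matching several places or genes are left out.

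Libraries were grouped by title. Genes were filtered with filterByExpr (minimum count 10, minimum total 15), scaled with TMM and compared with edgeR 4.0.16 in R 4.3.3 (robust glmQLFit, two-sided glmQLFTest, no covariate), and called at a Benjamini-Hochberg adjusted p under 0.05 over all 15896 genes. Standard errors of log2 fold changes come from the F value of each test. For members CPM are TMM-scaled, and for marker lists they are per library total. Alternatives were relative log expression, upper-quartile and library-total scaling, no filter, CPM of at least 5 in 3 libraries, DESeq2 1.42.0, limma-voom (limma 3.58.1), a replicate block and each library left out. No library pair within a group was alike within sampling noise (chi-square 93.5 to 444 per degree of freedom).

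Every member is named: called members with all library values, the others by value or fold change. Mitosis and marker lists were set beside the members. Members and lists were chosen with earlier results of these data known. The erythroid marker Ahsp was not analysed here.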

Additional observations from a re-analysis of the deposited data

Results flagged for a closer look

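In the group of 4 libraries without SMARTA, 4 of 59 measures had 1 library far from the other 3 by Dixon's criterion (gap to the nearest library over the whole range), which chance gives for about 1 in 20. Mcm4 was at 245 CPM in replicate 2, against 466 to 500.5 CPM in the others. Pold1 was at 140.5 CPM in replicate 2, against 211 to 213 CPM. In the same replicate summed melanoma markers were at 123 CPM, against 31.8 to 43.3 CPM. Summed stroma markers were at 125 CPM in replicate 4, against 88.8 to 93.5 CPM.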

How the results depend on the processing

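The 15 members called lower became 30 with the filter of CPM of at least 5 in 3 libraries, 33 with DESeq2, 31 with both libraries that stand apart left out (chosen after seeing the data) and 0 to 16 with each library left out; no setting called a member higher. Calls over all genes in either direction, 500, became 842, 1741, 1257 and 17 to 907 in the same order. The share of the genes tested that was called lower, 1.63%, became 5.23%, 5.78%, 3.95% and 0.0453% to 2.37%. With the CPM filter 9386 genes were tested. Other replication genes called lower, 4, became 13, 19, 13 and 0 to 6, and 7 with library totals; the 1 called higher was 0 to 1 with a library left out. The replicate block gave 0 in place of 500, 15, 4 and 1, with 32 members at an unadjusted edgeR p under 0.05. Deviations of same-numbered libraries from their group means correlated at r = −0.139, 0.0264 and −0.274 for numbers 1, 2 and 3. Deviations within a group are tied to each other by its mean, so these values cannot settle whether the numbers pair samples. The labels do not say that they do, and no pairing was assumed. Mitosis genes called lower, 8, became 15 with the CPM filter, 14 with limma-voom, 17 with DESeq2, 0 with the replicate block and 19 with both libraries left out. In the same order 5.23%, 1.7%, 5.78%, 0% and 3.95% of all genes were called lower. The cause of these shifts was not tested. The median log2 fold change of the members kept its direction throughout. Library totals moved the median of all genes to −0.16 and that of the members to −1.50, with 22 called.

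Cdt1 turned to −0.046 with library totals, −0.012 with limma-voom, −0.077 with the replicate block and −0.36 with both libraries left out, and ranged from −0.36 to 0.42 with each left out; Pold3 ranged from −0.34 to 0.10. Without its most abundant gene the difference in summed CPM, with minus without SMARTA, turned to −19.3 for melanoma and −0.910 for dendritic cell markers. With a library left out it ranged from −24.2 to 2386 for erythroid and from −118 to 60.3 for B cell markers. In every library the members lay above the floor, which covers counting error only. Whether the fewer genes detected in replicate 1 with SMARTA bear on the members was not tested.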

Other observations

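Ratios of CPM between partner genes within a library do not depend on library scaling; the pairs below were chosen after their values were seen and have no test. Mcm5 over Mcm4, subunits of the same ring, was 1.54, 1.31, 1.22 and 1.08 without and 0.675, 0.565 and 0.591 with SMARTA, without overlap. Gins1 over Gins4 was 0.505, 0.204, 0.276 and 0.263 without and 0.0583, 0.0656 and 0.0704 with SMARTA, and Rfc4 over Rfc1, subunits of the clamp loader, 1.77, 0.827, 0.792 and 1.16 without and 0.429, 0.487 and 0.357 with SMARTA, both without overlap. In each of these pairs the ratio was lower in every library with SMARTA. Each sets a called gene over one not called, so this direction is no further result. Of other pairs looked at, Gins2 over Gins3 did not overlap, while Orc1 over Orc2 and Pold3 over Pold1 did. The mean of Pold3 over Pold1 was higher with SMARTA, at 0.584 without and 1.005 with.

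Gmnn over Cdt1, the licensing inhibitor over its target, was 8.14, 2.67, 2.44 and 3.96 without and 0.832, 1.42 and 4.81 with SMARTA, with overlap, since replicate 3 with SMARTA lay above 3 of the 4 libraries without. Rrm2 over Rrm1 was 0.445, 0.808, 0.97 and 0.74 without and 0.282, 0.589 and 0.328 with SMARTA, with overlap. Samhd1 over Rrm2, an enzyme that degrades deoxynucleotides over a subunit of the one that makes them, was 0.886, 1.57, 0.972 and 0.892 without and 23.8, 11.9 and 22.8 with SMARTA. Its lack of overlap is no further result, since Samhd1 was higher and Rrm2 lower without overlap, as given above.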
